A study of Mus musculus with 11 samples.

Results

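The regions described here are 7972 segments of H3K4me1 in a mouse T-cell leukaemia line that also carried acetylation-like signal and carried no H3K4me3. They were chosen by the overlap of 3 segment lists of the same cells, out of the 46130 segments of the H3K4me1 library, of which they made up 17.3%. A member overlaps, by at least 1 bp, a segment of the library labelled H3K27me3, whose own file is named for H3K27 acetylation, and it overlaps no segment of the H3K4me3 library. Together the members covered 29.5 Mb. They were 26.2% of the 30485 H3K4me1 segments with acetylation-like signal; the other 22513 acetylated segments overlapped H3K4me3.

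The study took 8946 cells, a murine T-cell acute lymphoblastic leukaemia line, and sequenced DNA pulled down with chromatin proteins. The cells carried 2 retroviral constructs, one giving an epitope-tagged Zmiz1 with NGFR as its marker and the other an activated Notch1 with GFP, and cells positive for both markers were sorted. In the Flag line the tag was Flag and the Notch1 allele L1601PDP, and in the HA line the tag was HA and the allele DEGFDLNRDP. All 4 histone libraries, Rbpj, Flag-Zmiz1 and one ICN1 library came from the Flag line, and HA-Zmiz1 and the other ICN1 library from the HA line, so HA-line peaks are set here against histone segments of the other line. Both lines overexpress Zmiz1 and activated Notch1, and no cells without these constructs were profiled. Chromatin was fixed with formaldehyde for histone marks, and with DSG and formaldehyde for factors. Each target had 1 library per line, so there were no replicates and no test, and differences below are set against counting error only.

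H3K4me1 marks enhancers and the flanks of promoters, H3K27 acetylation marks those that are active, and H3K4me3 marks the starts of transcribed genes, so H3K4me1 with acetylation and little H3K4me3 is the usual signature of an active enhancer away from promoters. Rbpj is the DNA-binding partner of Notch: ICN1, the cleaved intracellular part of Notch1, joins it on DNA to switch target genes on. Zmiz1 is a PIAS-like protein that acts as a coactivator of Notch1 in T cells.

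The labels of both H3K27 libraries went against their signal. Among 20 housekeeping genes, 19 had H3K4me3 over a gene end, 19 a segment of the library labelled H3K27me3, and 0 a segment of the library labelled H3K27ac. Among 30 developmental regulators, usually silenced by Polycomb outside their own lineages, the counts were 2, 0 and 29. The first library is therefore called acetylation-like and the second Polycomb-like, after their patterns. The labelled cell type was matched by its markers: all 10 T-cell markers (Cd3d, Cd3e, Cd3g, Cd247, Cd2, Cd5, Lck, Lat, Zap70, Thy1) had H3K4me3 and acetylation-like segments over a gene end, against 0 of 8 B-cell markers and 1 of 8 myeloid markers (Itgam). In the longer lists of 12 B-cell and 12 myeloid genes used below, 2 of each had both marks over an end, Pou2af1 and Cebpb among them. Factor libraries held 13450671 to 19048270 filtered tags and their inputs 26791332 and 36404168. For the histone libraries the total number of reads is unknown.

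Few members held a gene start, and the handful that did and also had a factor peak there show what such a promoter looks like in sequence. RefSeq promoter windows (250 bases before to 50 after a start, GRCm38.p6) lay wholly inside a member in 243 cases, for 220 genes. Of these windows 160 belonged to long non-coding RNAs (65.8%, against 35.3% of all 32851 windows) and 83 to protein-coding genes. In segments with H3K4me1 alone the long non-coding share was 60.5% of 256 windows. An Rbpj peak touched 22.1% of all 32851 windows and 34.6% of the 3580 windows inside acetylated segments with H3K4me3. It touched 2.73% of the 256 windows inside segments with H3K4me1 alone. Inside members it touched 5 of the 243 windows (2.06%), a share near that of H3K4me1 alone. For 4 of these 5 windows, the stretch shared by the Rbpj peak and the window is printed 5′ to 3′ on the gene's strand, the plus strand in all 4, with each copy of TGGGAA, the core of the Rbpj site, or of its reverse complement TTCCCA in capitals.
Catip, chr1:74361886-74362107: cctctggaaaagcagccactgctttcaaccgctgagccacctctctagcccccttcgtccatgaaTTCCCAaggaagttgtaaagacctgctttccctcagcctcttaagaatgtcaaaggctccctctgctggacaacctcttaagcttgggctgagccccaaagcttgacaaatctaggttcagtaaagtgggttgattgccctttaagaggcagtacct
Prr29, chr11:106374612-106374721: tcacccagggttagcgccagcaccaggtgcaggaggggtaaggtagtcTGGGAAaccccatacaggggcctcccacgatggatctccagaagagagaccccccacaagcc
Gm13404, chr2:33973566-33973652: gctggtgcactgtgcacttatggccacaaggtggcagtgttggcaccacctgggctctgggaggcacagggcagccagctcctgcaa
Gm46521, chr15:80225408-80225494: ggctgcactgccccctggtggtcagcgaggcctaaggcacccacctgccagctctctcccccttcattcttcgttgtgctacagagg
The Rbpj summits lay 106 bp before the start of Catip and 187 bp before that of Prr29, and both of these peak stretches held 1 copy of the core. The stretches at the long non-coding RNA genes Gm13404 and Gm46521 held none. The fold enrichment of the Rbpj peak over input, a ratio the authors computed, was 8.80 at Catip, 6.07 at Prr29, 4.70 at Gm13404 and 7.84 at Gm46521.

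The same letters were frequent in promoters at large. TGGGAA or TTCCCA occurred in 30.5% of the 243 member windows (74 windows, exact 95% interval 24.7 to 36.7) and in 25.6% of all 32851. The longer GTGGGAA, searched on both strands and containing the shorter string, occurred in 9.47% (6.09 to 13.9) and 6.38%. TGTGGT, the Runx core, occurred in 23.0% (17.9 to 28.9) of member windows, 16.8% of all, and 27.3% (22.0 to 33.2) of the 256 windows inside segments with H3K4me1 alone. CCGGAAGT, an Ets site found in many CpG-rich promoters, occurred in 3 member windows (1.23%, 0.255 to 3.57) and in 3.89% of all. Only the Runx and Ets shares of all windows fell outside the member intervals. These intervals, here and below, are exact Clopper-Pearson intervals that take windows, segments and peaks as independent and cover counting error only.

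The promoter of Art2b, a gene for an ADP-ribosyltransferase on the T-cell surface, was one of the protein-coding starts inside a member. This member (chr7:101579401-101584200) had 258 H3K4me1 reads against 91 in the control and a fold of 3.51, and no H3K4me3 segment lay within 40.8 kb. An Rbpj peak (fold 9.13) and an HA-Zmiz1 peak (fold 8.84) lay inside it, with summits 104 and 112 bp beyond the start of Art2b. The 250 bases before that start, on the minus strand, are printed as the promoter next to which both peaks lie, not as peak sequence; the Runx core, as ACCACA, is in capitals, and no TGGGAA occurred.
Art2b, chr7:101581162-101581411: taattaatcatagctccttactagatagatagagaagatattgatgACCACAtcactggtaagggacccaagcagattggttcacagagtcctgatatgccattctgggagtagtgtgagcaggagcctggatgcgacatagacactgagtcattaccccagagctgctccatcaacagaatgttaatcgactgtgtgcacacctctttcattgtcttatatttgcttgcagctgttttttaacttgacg

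Members also held microRNA genes, which are short and often lie inside introns or long non-coding RNAs. Of 1005 RefSeq hairpins, 14 (1.39%) lay in a member, each in a different one. Acetylated segments with H3K4me3 held 111 (11.0%) and segments with H3K4me1 alone 9 (0.896%). These counts go with the length covered: 29.5 Mb in members, 128 Mb with H3K4me3 and 29.5 Mb with H3K4me1 alone. The 22 mature forms of the 14 hairpins in members had 22 different seeds, so no seed was shared among them. The 4 printed here are from the widest such member with H3K4me1 fold over 2 (miR-138), from both members with an Rbpj peak (miR-190a and miR-205), and from the miR-181 family, which tunes T-cell receptor signalling. Seeds, bases 2 to 8, are in capitals.
mmu-miR-138-5p, chr9:122682898-122682920, plus strand: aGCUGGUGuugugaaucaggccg
mmu-miR-190a-5p, chr9:67236700-67236721, minus strand: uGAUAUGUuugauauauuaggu
mmu-miR-205-5p, chr1:193507503-193507524, minus strand: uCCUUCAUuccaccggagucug
mmu-miR-181d-5p, chr8:84178759-84178781, minus strand: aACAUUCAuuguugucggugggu
The Mir138-1 member (chr9:122673601-122685400) was 11800 bp wide, with 647 H3K4me1 reads against 272 control reads and a fold of 2.94, and its acetylation-like fold was 4.06. The Mir190a member had an Rbpj peak of fold 10.3 with its summit 415 bp from the hairpin, inside Tln2, the gene of the adhesion protein talin. In the Mir205 member, within the Mir205hg transcript, the Rbpj summit (fold 6.93) lay 3333 bp from the hairpin. The seed of miR-181d-5p is shared by miR-181a, miR-181b and miR-181c, whose hairpins lay in no member.

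Members were modest segments by both marks that chose them, and these values are a description. Widths ran from 400 to 50200 bp with a median of 3000 bp and quartiles of 2000 and 4600 bp. The H3K4me1 fold over control had a median of 2.31 (quartiles 1.93 and 2.78, highest 15.7), and a median member held 125 H3K4me1 reads against 67 control reads. The fold of the best overlapping acetylation-like segment had a median of 2.25 and quartiles of 1.91 and 2.80. Acetylated segments with H3K4me3 were wider, with a median of 3800 bp, and their median H3K4me1 fold was 2.70. Segments with H3K4me1 alone were narrower, at 2200 bp, with a fold of 2.10.

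Some segments lay close to the rule's limits on either side. Acetylation-like segments covered 61.5% of the members' bases, and 1331 members in full. Just inside the rule, 103 members shared only 200 bp, a single window of the segment caller, with acetylation. Just outside it, 69 H3K4me1 segments with neither mark directly adjoined an acetylation-like segment. Toward H3K4me3, 2 members directly adjoined an H3K4me3 segment and 31 acetylated segments were left out because of a single 200-bp window. The median distance from a member to H3K4me3 was 10.0 kb, and 588 members (7.38%) had an H3K4me3 segment within 2 kb.

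Most members lay away from gene ends. Of the 7972, 6712 lay over 5 kb from the nearer end of every protein-coding gene (84.2%, 95% interval 83.4 to 85.0). The share was 36.4% (35.8 to 37.0) for acetylated segments with H3K4me3 and 83.8% (83.1 to 84.5) for H3K4me1 alone. Members and H3K4me1 alone thus had similar shares, with overlapping intervals. Both lack H3K4me3 by definition, and H3K4me3 marks gene starts. The shares in this paragraph are therefore not independent of the rule and are a description. Inside the span of a protein-coding gene lay 4586 members (57.5%), and the median distance to a gene end was 26.4 kb. A listed transcription start fell inside 233 of the 7618 members on chromosomes with promoter entries (3.06%), against 13.9% for acetylated segments with H3K4me3. Exon and intron positions were not used here.

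Polycomb-like signal was rare in members. Of the 7972, 53 overlapped a Polycomb-like segment (0.665%, 0.498 to 0.869), where the share over all H3K4me1 segments was 7.11%. It was 4.55% (4.28 to 4.83) for acetylated segments with H3K4me3. This library was not used to choose members.

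Peaks of the factors, which the rule did not use either, were scarce in members and frequent in acetylated segments with H3K4me3. Rbpj peaks lay in 422 members (5.29%, 4.81 to 5.81), where 19.3% of all H3K4me1 segments had one. The share was 33.5% (32.9 to 34.1) in acetylated segments with H3K4me3 and 2.46% (2.19 to 2.75) in segments with H3K4me1 alone. HA-Zmiz1 peaks lay in 82 members (1.03%, 0.819 to 1.28) against a background of 6.88%, with 13.1% (12.6 to 13.5) and 0.314% (0.222 to 0.431) in the same other classes. For both factors the members stood between those classes, closer to H3K4me1 alone. That last class leaves out 1082 segments with Polycomb-like signal and neither acetylation nor H3K4me3. Their shares were above those of members, at 7.12% (5.66 to 8.81) for Rbpj and 2.03% (1.28 to 3.06) for HA-Zmiz1. No peak in a member lay at a site of high input, where the local input background is 10 or more times its mean.

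**Figure D1:**
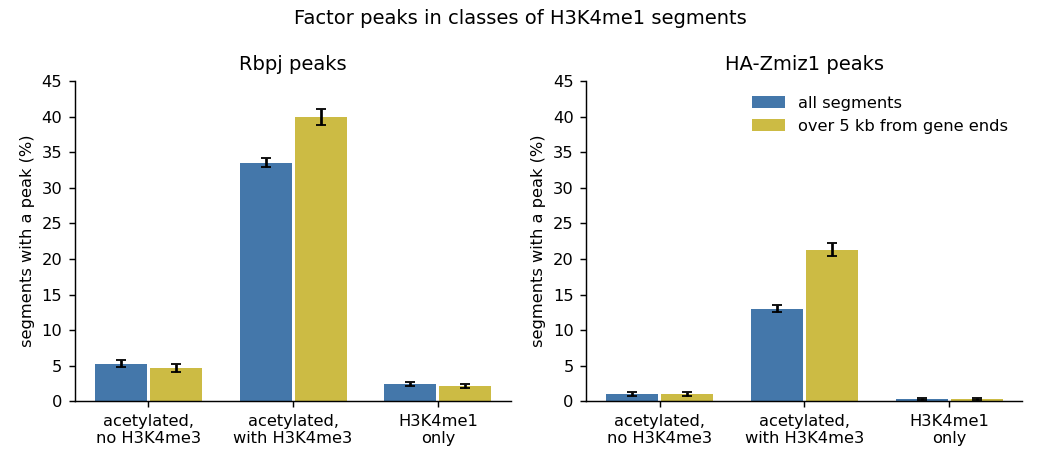
Share of H3K4me1 segments (%) with a Rbpj peak (left) and an HA-Zmiz1 peak (right) in members, acetylated segments with H3K4me3 and segments with H3K4me1 alone. Bars are shares, whiskers exact 95% intervals, blue all segments and yellow those over 5 kb from gene ends: members stay at 5.29% and 4.68% for Rbpj while acetylated segments with H3K4me3 reach 33.5% and 39.9%.

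The gap was no smaller away from gene ends. Over 5 kb from gene ends, Rbpj peaks lay in 4.68% of members (4.19 to 5.21) and in 39.9% (38.9 to 41.0) of acetylated segments with H3K4me3. HA-Zmiz1 peaks lay in 1.04% (0.814 to 1.32) and 21.3% (20.4 to 22.2). Wide segments can hold more peaks, so the shares were also read within bands of width. Among segments of 2600 to 3400 bp, 5.38% of 1858 members and 23.9% of 3455 acetylated segments with H3K4me3 had a Rbpj peak. In the band over 5200 bp the shares were 7.41% and 52.5%. For HA-Zmiz1 the gap depended more on width: over 5200 bp the shares were 2.11% (1.41 to 3.01) and 29.8% (28.8 to 30.8), and at 400 to 1600 bp 0.369% (0.101 to 0.941) and 1.02% (0.717 to 1.41), with overlapping intervals. Rbpj peaks per Mb of segment numbered 14.5 in members, 83.6 in acetylated segments with H3K4me3 and 10.3 in H3K4me1 alone.

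The share of segments with a factor peak differed with the amount of H3K4me3 on the segments outside the rule, in a comparison added after the data had been seen. Acetylated segments over 5 kb from gene ends were ranked by the fold of their H3K4me3 and cut into 5 groups of 1639 or 1640 segments. Rbpj peaks lay in 23.0% (21.0 to 25.1) of the lowest group, with H3K4me3 folds of 1.23 to 2.41, in 53.9% (51.4 to 56.3) of the fourth, and in 46.2% (43.8 to 48.7) of the highest. HA-Zmiz1 peaks lay in 10.8% (9.33 to 12.4), 31.3% (29.1 to 33.6) and 17.6% (15.8 to 19.5) of the same groups. Even the segments with least H3K4me3 thus held Rbpj peaks more often than members did. Over all acetylated segments, gene ends included, the shares peaked in the second of 5 groups and fell after it: Rbpj went from 29.8% in the lowest to 52.7% in the second and 19.8% in the highest group, and HA-Zmiz1 from 15.9% to 29.9% and 2.93%. Rbpj peaks per Mb of segment differed from this. Over 5 kb from gene ends they rose through all 5 groups, from 41.6 to 107. Over all acetylated segments they were densest in the third group, at 106 against 92.0 in the second and 76.4 in the highest. HA-Zmiz1 peaks per Mb were highest in the same groups as the shares, at 46.1 and 46.6. Over 5 kb from gene ends, the median acetylation-like fold was 2.23 in members, 2.60 in the lowest group and 3.82 in the fourth. It was higher still in the highest group, at 4.53, where both shares were lower than in the fourth. The median width was 3000, 5000, 6600 and 4400 bp in the same sets. Over all acetylated segments the median acetylation-like fold went from 2.83 in the lowest group to 5.18 in the highest. The part of acetylation and width in the result was not tested.

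**Figure D2:**
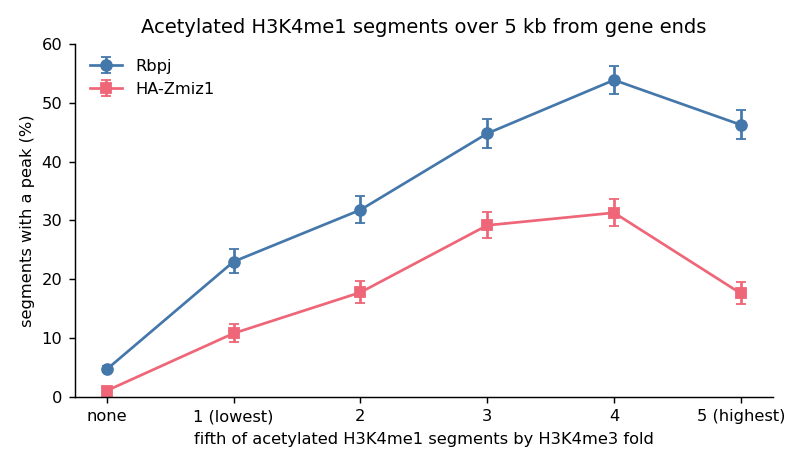
Share (%) of acetylated H3K4me1 segments over 5 kb from gene ends with a Rbpj peak (blue circles) and an HA-Zmiz1 peak (red squares), for members (none) and for 5 groups of the other segments by H3K4me3 fold. Whiskers are exact 95% intervals: Rbpj goes from 4.68% in members to 53.9% in the fourth group and 46.2% in the highest.

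The contrast depended on where the line for H3K4me3 was drawn. When only the upper 50% of H3K4me3 segments by fold counted as H3K4me3, members numbered 14767, their Rbpj share was 19.5% (18.9 to 20.2) against 32.3% (31.6 to 33.1), and the HA-Zmiz1 share was 10.1% (9.64 to 10.6) against 9.70% (9.24 to 10.2) in acetylated segments with H3K4me3. With that limit the HA-Zmiz1 difference was gone.

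Where a Rbpj or HA-Zmiz1 peak occurred in a member, its summit lay mostly in the acetylated portion. Of 425 Rbpj summits in members, 368 fell on acetylation-like segments (86.6%, 83.0 to 89.7), which covered 61.5% of the members' bases. For HA-Zmiz1 the count was 75 of 83 (90.4%, 81.9 to 95.7), and for Flag-Zmiz1 8 of 12 (66.7%, 34.9 to 90.1), an interval that holds the share of bases. By acetylation-like fold, the Rbpj share was 3.76% (2.88 to 4.82) in the lowest of 5 equal groups of members and 6.21% (5.07 to 7.51) in the highest. The rise was not steady, with 6.15% in the third group and 5.52% in the fourth. By the percent of the member acetylated, the Rbpj share was 4.39% (3.44 to 5.51) in the lowest group and 5.45% (4.39 to 6.68) in the highest, with overlapping intervals. The Rbpj share stepped down with distance, from 8.46% (7.14 to 9.94) in the group nearest a gene end to 3.26% (2.44 to 4.25) in the group at 90.0 kb or more. Rbpj peaks in members were about as strong as elsewhere, with a median fold of 6.12 against 6.40 in acetylated segments with H3K4me3.

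HA-Zmiz1 and Rbpj peaks met less often in members than in acetylated segments with H3K4me3. Of 85 HA-Zmiz1 peaks in members, 26 overlapped a Rbpj peak (30.6%, 21.0 to 41.5), against 2740 of 3882 (70.6%, 69.1 to 72.0). The gap held within bands of HA-Zmiz1 fold: between 5 and 8 it was 22.2% of 45 peaks (11.2 to 37.1) against 66.0% of 2262 (64.0 to 67.9), and at 8 or more 58.3% of 24 (36.6 to 77.9) against 85.3% of 1081 (83.0 to 87.4). In segments with H3K4me1 alone, 15 of 39 HA-Zmiz1 peaks overlapped a Rbpj peak (38.5%, 23.4 to 55.4), an interval that overlaps that of members. Rbpj and HA-Zmiz1 were profiled in different lines. By member, 388 held only Rbpj, 51 only HA-Zmiz1, and 28 both and nothing else. No factor peak was found in 7485 members (93.9%).

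The 5 most significant Rbpj peaks in members had folds of 14.8 to 22.0. The first was in Arhgdib, which holds small GTPases inactive and is abundant in blood cells: its member (chr6:136930201-136931800) had 99 H3K4me1 reads against 32 in the control and a fold of 3.83, and the Rbpj fold was 22.0. The second lay 3.75 kb from Mmp14, a membrane-bound matrix metalloproteinase, with a Rbpj fold of 18.6 and 176 reads against 73. Skp2, the substrate-binding subunit of a ubiquitin ligase that drives cells into S phase, held a member with a Rbpj fold of 14.8 and 203 reads against 100. A member 168 kb from Pik3r1, which encodes the regulatory subunit of PI3-kinase, had a Rbpj fold of 18.1 and 155 reads against 106. These 4 members had no HA-Zmiz1 or ICN1 peak, whereas the third by significance, 118 kb from Fam43a, also had ICN1 and is described below.

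ICN1 was found in 8 members, 7 by the HA-line library and 1 by the Flag-line library. The HA-line share was 0.0878% (0.0353 to 0.181) against 0.642% of all H3K4me1 segments and 1.23% (1.09 to 1.39) of acetylated segments with H3K4me3. The member in Dap, a gene linked to cell death and autophagy, had all 3 of the associated factors: its HA-line ICN1 fold was 8.78, its HA-Zmiz1 fold 13.1 and its Rbpj fold 7.39. Their summits fell within chr15:31269741-31269813, and acetylation-like signal covered this member in full, 3.20 kb from the nearest H3K4me3. Onecut2, a homeodomain factor gene, had the same 3 factors 7.11 kb away, with folds of 6.09 for ICN1, 6.96 for HA-Zmiz1 and 6.84 for Rbpj.

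The other HA-line ICN1 members carried fewer factors. A member 30.5 kb from Bcl6, which encodes a repressor of lymphocyte differentiation genes, had ICN1 (fold 7.88) and a strong Rbpj peak (fold 16.2) but no HA-Zmiz1, with 231 H3K4me1 reads against 99. Near Fam43a, 118 kb away, the Rbpj fold was 19.3 and the ICN1 fold 4.90, on a weak member of 65 reads against 49. Both of these peaks lay outside the acetylated portion of the member. Near Aldh1b1, a mitochondrial aldehyde dehydrogenase gene, ICN1 (fold 7.18) came with 2 HA-Zmiz1 peaks and no Rbpj. ICN1 came with Rbpj alone near LOC115488529 (folds 6.03 and 6.84), and near Zswim6 ICN1 was alone, with a fold of 6.66. The Flag-line ICN1 library had 1 peak in a member (0.0125%, against 0.0629% of all H3K4me1 segments), 47.8 kb from the Ets-family gene Erg. Its fold was 4.53 and it lay outside the acetylated portion.

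The 5 members with the most significant HA-Zmiz1 peaks had folds of 11.6 to 13.1. The first lay 11.0 kb from Ptgr2, a prostaglandin reductase gene, with an HA-Zmiz1 fold of 12.2 and no Rbpj. Its member had the highest acetylation-like fold of the 5, at 5.10, and an H3K4me3 segment 0.801 kb away. The member 127 kb from Cand1, an exchange factor of cullin ubiquitin ligases, had HA-Zmiz1 (fold 13.1) and Rbpj (5.50), and H3K4me3 lay 1.20 kb away. Slc25a31, an ADP/ATP carrier gene, had HA-Zmiz1 alone (fold 12.7). Tex14, which acts in the bridges between germ cells, had HA-Zmiz1 (11.6) and Rbpj (5.53) on a member with 160 reads against 135. H3K4me3 lay 0.201 kb away, so 3 of these 5 members lay at most 1.20 kb from an H3K4me3 segment. Near Cand1 and in Tex14 the HA-Zmiz1 peak given here overlapped only the edge of the member. Its summit lay before the member's start, at 119067537 against 119067601 for Cand1 and at 87426905 against 87427001 for Tex14. By fold alone, a member in Mical2, which also had Rbpj (fold 6.68), ranked above Ptgr2 and Tex14, and its nearest H3K4me3 segment was 70.0 kb away.

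The Flag-Zmiz1 library gave another picture. It had peaks in 12 members (0.151%, 0.0778 to 0.263), where 0.186% of all H3K4me1 segments had one, and the share in acetylated segments with H3K4me3 was 0.235% (0.176 to 0.308). These 3 shares did not differ beyond their intervals. None of the 12 peaks overlapped a Rbpj peak (0%, 0 to 26.5), an interval that holds the 14.6% of all 581 Flag-Zmiz1 peaks that did, and none overlapped an HA-Zmiz1 peak. The most significant peak, also the highest in fold at 8.60, lay in Cux1, a homeodomain factor gene, outside the acetylated portion of the member. The next by significance lay near A930007A09Rik (fold 8.12), in Utrn, the gene of the dystrophin-related protein utrophin (7.92), and in Ttll5, a tubulin polyglutamylase gene (7.58). Then came one near Spink4, a protease inhibitor gene (7.21).

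Genes of the T-cell programme often had members nearby. Among 31 T-cell receptor and surface genes, 23 had a member within 50 kb (74.2%, 55.4 to 88.1), and among 28 T-lineage regulators 23 did (82.1%, 63.1 to 93.9). The background was 30.1% of all 21887 protein-coding genes and 43.5% of the 10192 with H3K4me3 over a gene end. The count was 18 of 27 for Notch pathway and target genes, 9 of 20 for housekeeping genes, 5 of 12 for B-cell genes, 4 of 12 for myeloid genes and 3 of 30 for developmental regulators. Gene length moves with these counts: the median span was 69.4 kb for T-lineage regulators, 14.7 kb for the receptor and surface genes and 17.2 kb for all genes. Neighbours also share members, as Cd3d, Cd3e and Cd3g do. Within 10 kb the counts were 8 of 31 (25.8%, 11.9 to 44.6), 12 of 28 (42.9%, 24.5 to 62.8) and 12 of 27 (44.4%, 25.5 to 64.7) for the first 3 lists, against 15.9% of all genes and 23.7% of those with H3K4me3 over an end. At that distance the share of receptor and surface genes was near the background. The result also rests on weaker segments. With only the upper 50% of H3K4me1 and acetylation-like segments by fold, 1133 members remained, and 2 of the 31 receptor and surface genes had one within 50 kb. The share over all genes was not computed for that set.

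**Figure D3:**
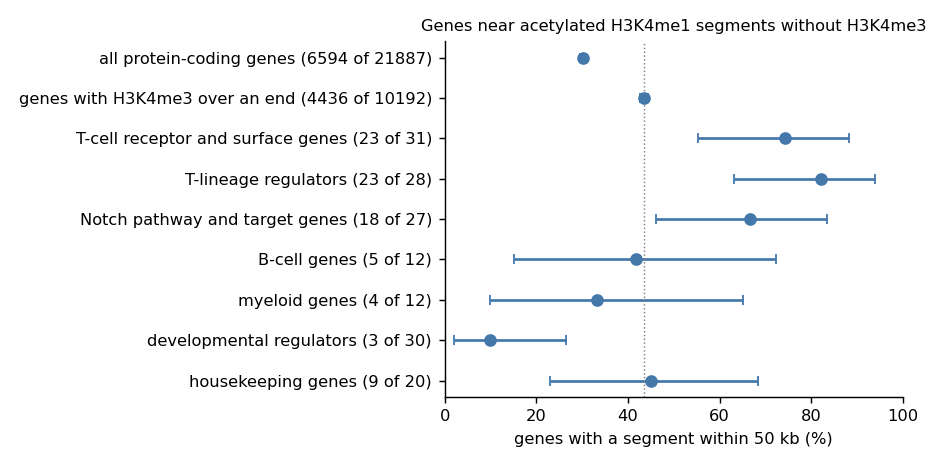
Share (%) of the genes of each list with a member within 50 kb, with counts; points are shares, whiskers exact 95% intervals, and the dotted line the share among genes with H3K4me3 over an end (43.5%). T-lineage regulators (82.1%) and T-cell receptor and surface genes (74.2%) lie right of the line and developmental regulators (10.0%) left of it.

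Of the T-cell receptor and surface genes, Ctla4, an inhibitory receptor gene, had 4 members within 50 kb. The widest lay 39.4 kb from Ctla4, was 13800 bp wide, had 861 H3K4me1 reads against 396 and held a Rbpj peak of fold 8.41. The other 3, at 6.03 to 8.43 kb, were 1600 to 2400 bp wide with folds of 1.64 to 3.02 and had no factor peak. Cd2, an adhesion receptor gene, also had 4, with H3K4me1 folds of 1.95 to 2.58. The 4 members on the high-coordinate side of Cd3e, which encodes a signalling chain of the T-cell receptor, had folds of 1.39 to 2.31, and the nearest, 13.3 kb away, held a Rbpj peak of fold 6.23. Cd28 and Ccr9, a costimulatory and a chemokine receptor gene, had 3 each, all without factor peaks. No member lay within 50 kb of Cd5, Cd6, Cd8a, Cd27, Lck, Il2ra, Ccr7 or S1pr1, and their nearest ones were 63.9 to 423 kb away.

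The T-lineage regulator with most members was Foxp1, a forkhead factor gene that keeps naive T cells quiescent, with 13 in its 597 kb span and 14 within 50 kb. These were weak to moderate, with H3K4me1 folds of 1.38 to 2.99, and none held a factor peak. Lef1, an effector of Wnt signalling in thymocytes, had 6, of which the one 41.9 kb away on the low-coordinate side was the strongest (346 reads against 124, fold 3.45). Tcf12, the gene of the E protein HEB, had 6, one of them 17000 bp wide and another with a Rbpj peak of fold 8.71. Sox4, the gene of a progenitor transcription factor, had 6 on both sides of its span, and the member 17.1 kb away (384 reads against 165) held Rbpj (fold 7.00) and HA-Zmiz1 (9.07). Tox and Runx1, 2 further factors of T-cell development, had 5 each, with no factor peak. Over the whole list, 5 genes had a Rbpj-bound member within 50 kb, 1 an HA-Zmiz1-bound one (Sox4) and 1 an ICN1-bound one (Bcl6).

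In the Notch list the Polycomb-like library moved with the split, and its part in it was not tested. Of the 9 genes with no member within 50 kb, 7 had a Polycomb-like segment over a gene end, among them the canonical targets Hes1, Hes5, Hey1, Nrarp and Dtx1. Of the 18 with a member, 7 did. These counts are small, and Nrarp and Dtx1, unlike Hes1, Hes5 and Hey1, also had H3K4me3 over an end. Igf1r, a growth factor receptor gene and Notch1 target in T-cell leukaemia, had 8 members, 7 of them inside the gene. A pair near one another in Igf1r held Rbpj peaks, of fold 5.89 on a member of 134 reads against 44 and of fold 9.01 on one of 87 against 50. Cdk6, the gene of a G1 kinase, held 6 with H3K4me1 folds of 1.89 to 5.06, and no factor peak. Notch2 held 3 with folds of 2.39 to 3.38. Lfng, whose product modifies Notch receptors, had 3 within 50 kb although its ends carried a Polycomb-like segment and no H3K4me3. The endogenous Zmiz1 gene had 3, the strongest 13.9 kb away (257 reads against 94, fold 3.38).

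Genes of other lineages were not free of members. Itgam, the myeloid integrin gene that also carried H3K4me3 and acetylation, had 5, of which the strongest had 493 reads against 222 and a fold of 2.75. Pou2af1, a B-cell coactivator gene, had 4, with folds of 1.75 to 2.39. Blnk, a B-cell adaptor gene, had 1 inside the gene (91 reads against 31), although it had no H3K4me3 over an end. Cebpb had a member with Rbpj (fold 6.35) and HA-Zmiz1 (10.2). Among developmental regulators the 3 genes with members were Nkx2-2, Pax7 and Lhx2. Hsp90ab1, a chaperone gene, led the housekeeping list with 4, and one of these held a Rbpj peak of fold 11.3.

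Members were mostly scattered. Joined across gaps of up to 12.4 kb they formed 6010 groups, of which 4672 were single members, 961 pairs and 377 groups of 3 or more, with 1378 members in the last. The largest group had 13 members over 101 kb inside Exoc4, which encodes a subunit of the exocyst that tethers secretory vesicles. The Exoc4 gene as a whole held 40 members, the most of any gene, in 725 kb. Their median fold was 2.09 with 24.0 control reads per kb, and 1 held a Rbpj peak. After Exoc4 came Nckap5 with 27, the mineralocorticoid receptor gene Nr3c2 and the metabolic enzyme gene Sugct with 20 each, and Tbc1d22a with 16. Hecw2 and Utrn held 14 each, and Mad1l1, a spindle checkpoint gene, the calcium channel gene Cacna1d and the nuclear factor I gene Nfia 13 each. These are long genes, from 284 to 917 kb, and only Cacna1d had more than 1 Rbpj-bound member (3 of 13).

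Further groups lay in or near single genes. Mad1l1 had one of 9 members within 48.6 kb. Around Otx2, a homeodomain factor gene of the brain, 7 members covered 41.2 kb of a 76.6 kb stretch with a median acetylation-like fold of 2.53 and no H3K4me3 segment between them. The matrix metalloproteinase genes Mmp13 and Mmp12 shared a group of 7 (chr9:7269601-7333400), with a median acetylation-like fold of 2.95. Further groups of 7 lay near Abra, near Moxd1 and Ccn2, near Fbp1 and Aopep, and near Gadl1 and Tgfbr2, the last with a Rbpj peak, and a group of 6 lay near Gm52008. No HA-Zmiz1 or ICN1 peak fell in any of the 10 largest groups.

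Chromosomes 15 and X stood apart in the control reads, and the extreme members came from them. Control reads numbered 30.5 per kb of member on chromosome 15 and 13.5 on X, against 21.1 to 23.0 on the other autosomes. H3K4me1 reads were nearly level, at 44.5, 40.2 and 41.0 to 43.4 per kb. The median H3K4me1 fold was therefore 1.79 on chromosome 15, 3.73 on X and 2.23 to 2.46 elsewhere, and the median width 4400, 2200 and 2800 to 3200 bp. Acetylated segments with H3K4me3 showed the same, with 34.3 and 13.6 control reads per kb on chromosomes 15 and X. What sets the control reads was not tested. Without both chromosomes 7460 members remained, with a median width of 3000 bp and a Rbpj share of 5.27%.

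**Figure D4:**
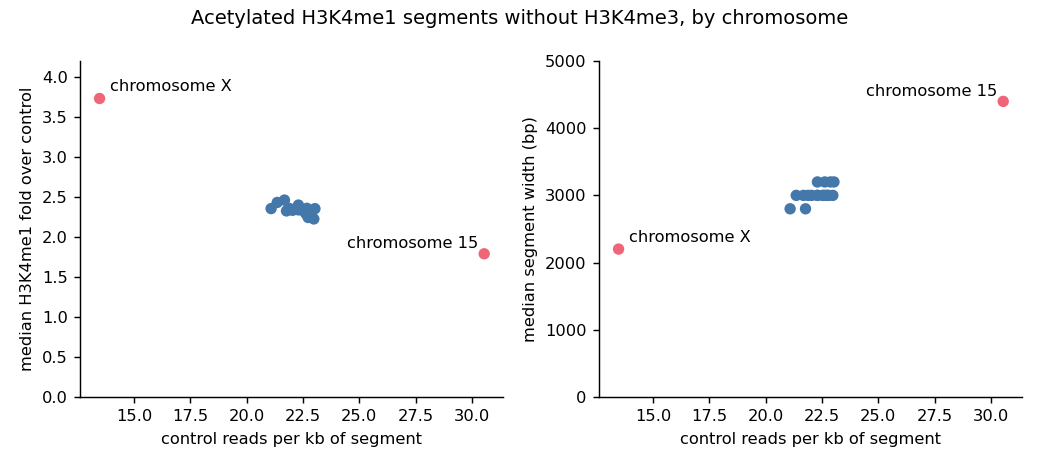
Median H3K4me1 fold over control (left) and median width in bp (right) of members on each chromosome, against control reads per kb of member. Each point is a chromosome, red for 15 and X: chromosome 15 (30.5 reads per kb) has the lowest fold, 1.79, and the widest members, 4400 bp, and X (13.5) the highest fold, 3.73, and the narrowest, 2200 bp.

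Of the 10 members with the highest H3K4me1 fold, 7 lay on X, which held 1.18% of all members, and all 10 had only 3 to 22 control reads. The first lay 1.97 kb from Hamp, the gene of the iron hormone hepcidin, with 38 reads against 3 and a fold of 15.7. The second, in Cd200r3, a receptor gene of the Cd200 family, had 44 against 5. A pair near Gpr174, a lymphocyte receptor gene for lysophosphatidylserine on X, had folds of 9.04 (73 against 10) and 6.27 (81 against 16) and acetylation-like folds of 6.85 and 7.52. The rest lay near Plpp4, Bcor, Vegfd and Hprt and in Tceal3 and Fthl17a, with folds of 6.11 to 7.63, and the one in Tceal3 held a Rbpj peak (fold 7.29).

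Of the 10 widest, 6 lay on chromosome 15, which held 5.24% of all members. They were a 50.2 kb and a 21.0 kb member between Myc and Gsdmc, members near Kcns2 and in Atxn10 and Tnrc6b of 22.6 to 23.6 kb, and one of 20.6 kb in Dip2b. Their folds were 1.52 to 1.84, and the member near Kcns2 held an HA-Zmiz1 peak (fold 7.36). Of the other 4, the one with the highest fold, 3.04, lay 156 kb from Sox6, with 1278 reads against 521 over 22.0 kb and acetylation-like signal over 83.6% of it. Elf1, an Ets factor gene of lymphocytes, held one of 21.6 kb, and Mitf, a pigment-cell factor gene, one of 19.6 kb. The member of 23.0 kb in Chchd3 was acetylated over 3.48% of its length.

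Beyond Myc on chromosome 15 lies a gene-poor stretch known to hold distant Myc enhancers, including one bound by Notch in T-cell leukaemia. In the 2 Mb past the end of Myc there were 33 members over 272 kb and 32 acetylated segments with H3K4me3 over 500.2 kb. Members held 0 Rbpj peaks, 1 HA-Zmiz1 peak and 0 ICN1 peaks. Of the 32 segments with H3K4me3, 11 had Rbpj, 10 HA-Zmiz1, 2 HA-line ICN1 and 1 Flag-line ICN1. Counts this small carry wide error, and the direction is that of the whole genome.

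**Figure D5:**
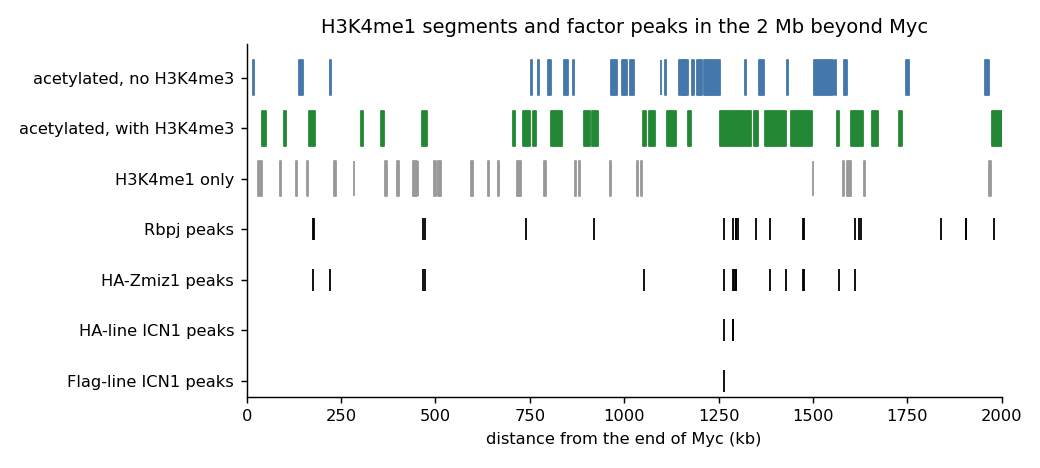
H3K4me1 segments (bars, to scale, by class) and factor peaks (ticks at summits) by distance in kb from the end of Myc. Members cluster from 1144 to 1253 kb and from 1504 to 1562 kb, and the ICN1 peaks lie between 1265.5 and 1289.7 kb on acetylated segments with H3K4me3.

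The second largest group of members lay in this stretch, with 10 members covering 81.6 kb at 1144 to 1253 kb from Myc (chr15:63134401-63243800). Their H3K4me1 folds were 1.29 to 2.40, with 36.1 control reads per kb, and they held no factor peak. The last of them, 21.0 kb wide, had 1141 reads against 795. The widest member of all, 50.2 kb at 1504 to 1554 kb from Myc, had 2448 reads against 1803 and a fold of 1.68. Acetylation-like segments covered 92.0% of its length, and the best of them had a fold of 1.88. Among the 33 members of this stretch, the one with the highest acetylation-like fold, 6.43, was 3600 bp wide. It lay at 1320 to 1323 kb, with an H3K4me1 fold of 2.28. This is the fold of the best overlapping acetylation-like segment, not of the member alone. The acetylated segments with H3K4me3 on both sides of it had the same value. The only factor peak in the 33 members was an HA-Zmiz1 peak of fold 12.2, on a member of 140 reads against 90 at 221 to 223 kb from Myc.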

How the data were processed

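The 5 factor peak lists and 4 histone segment lists were used as deposited, from 11 samples each forming its own group. Per the file headers, the authors called peaks with MACS 2.0.10.20120913 at a p limit of 1e-05, using each line's own input; HA-line headers name pooled reads. The submitters' processing notes name Bowtie 0.12.7, SICER 1.1, HOMER 4.2 and mm10. Each deposited peak has a pileup signal, a fold enrichment (a ratio) and a −log10 p. Deposited segments, in windows of 200 bp, have read counts for precipitation and control, a fold and a p-value with false discovery rate of at most 0.001. Within each segment list fold equalled the read ratio times 1 constant (1.24 for H3K4me1), so it is scaled for depth.

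An overlap was 1 bp or more. Overlaps were found with Python 3.11.15 and scipy 1.17.1, and the overlap code was tested on simulated intervals. Gene spans, promoter windows and microRNAs came from RefSeq tables of GRCm38.p6, the build mm10 names. No genome sequence was used, so peak sequences appear only within promoter windows. The local input at a peak was (pileup + 1) / fold − 1. Members, the 7 lists of 160 genes and the alternatives were chosen with earlier results of these data known. Named were the up to 6 genes of each list with most members, the 10 genes holding most members, genes at the strongest peaks of each factor, at the 10 highest folds, the 10 widest members and the 10 largest groups; Art2b, Catip, Prr29, Gm13404, Gm46521 and the microRNAs were chosen after their values were seen. Some genes that this rule selects are not reported here.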

Additional observations from a re-analysis of the deposited data

How the results depend on the processing

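No paired analysis was possible because each target had 1 library per line. Of 59 values recomputed under other settings, 37 stayed within the 95% interval of a share, within 1.5 times a count or, for the median width (2600 to 4000 bp), within the quartiles of 2000 and 4600 bp, and 22 did not; the 9 results recomputed without chromosomes 15 and X, chosen after seeing the data, all stayed. Counting only the upper 50% of H3K4me3 segments gave 14767 members, 19.5% with Rbpj, 10.1% with HA-Zmiz1, 0.880% with HA-line ICN1, 0.115% with Flag-line ICN1, 1.28% over Polycomb-like segments and 82.5% away from gene ends. Keeping the upper 50% of H3K4me1 and acetylation-like segments by fold left 1133 members, with Rbpj in 6.35%, HA-Zmiz1 in 1.59% and Flag-line ICN1 in 0%. Of these members 81.7% lay away from gene ends, and 2 of 31 T-cell receptor and surface genes had one within 50 kb. Under peaks at p of 1e-10 or less the shares were 2.28% for Rbpj, 0.527% for HA-Zmiz1, 0.0753% for Flag-Zmiz1 and 0% for Flag-line ICN1, whose 1 peak was also lost (0%) with acetylation over at least 50% of the segment. With no H3K4me3 within 2 kb, 85.5% lay away from gene ends, and limits of 2 and 20 kb gave 91.9% and 57.0%. A window of 10 kb left 8 T-cell genes. Fewer segments, peaks or bases meet the stricter limits by construction, but a share of the members left can move either way. With the upper 50% by fold, the Rbpj and HA-Zmiz1 shares lay above their main values of 5.29% and 1.03%. The H3K4me3 limit counts acetylated segments with weaker H3K4me3 as members, and 29.8% of the lowest group by H3K4me3 fold held Rbpj. How far this accounts for the change was not tested. The ICN1 and Flag-Zmiz1 shares rest on 1 to 12 peaks and are imprecise; these libraries held 13450671 to 15429394 tags and HA-Zmiz1 15322650.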

Other observations

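The 53 members that also overlapped a Polycomb-like segment were led in width by 6 regions, chosen after their values were seen. A 13.2 kb member in Ctnnd2, the gene of the neuronal adhesion protein delta-catenin, had 428 H3K4me1 reads against 336 and held both Rbpj (fold 5.80) and HA-Zmiz1 (9.33). One of 12.2 kb in Il23r, a cytokine receptor gene of Th17 cells, had 646 reads against 322 and an HA-Zmiz1 peak of fold 5.26. Members near En1 and Cd82 held Rbpj peaks of fold 5.51 and 4.53, and those in Scube1 and near Pax7 held none.

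Several lymphocyte genes had a protein-coding start inside a member and so no H3K4me3 there, again picked after the values were seen. Beside Art2b these were Itgb7, an integrin gene of gut homing (member fold 1.86, H3K4me3 3.80 kb away), Gimap3, a GTPase gene of lymphocyte survival (1.71, 1.20 kb), Ms4a6b (3.75, 18.2 kb), Fcmr, the IgM receptor gene (2.82, 35.4 kb), and Klrb1a, a killer-cell receptor gene (2.53, 58.2 kb). RefSeq lists several starts for some genes, and which start these cells use was not measured.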
